A study of Homo sapiens with 6 samples.

Results

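Aminoacyl-tRNA synthetases are the enzymes that load each transfer RNA with its amino acid, the step that makes the genetic code readable by the ribosome. The 36 synthetase genes described here are 20 that serve the cytosol and 16 that serve mitochondria, out of 58395 genes measured by RNA-seq. The rule that chose them used name and compartment, and it was set with earlier results of these data known. The cells were HCT116, an established human colorectal cancer line grown in DMEM with fetal bovine serum, which had been infected with lentivirus and placed under drug selection. In the shControl group (3 libraries) the virus carried a non-target control hairpin, and in the shSTBD1 group (3 libraries) it carried a hairpin against STBD1, a glycogen-binding protein that delivers glycogen to autophagosomes. The knockdown is represented by 1 hairpin, so effects of the hairpin itself and of lower STBD1 cannot be told apart. The libraries are described as biological replicates, and what was separate between them is not given in the sources used here, so p-values measure the spread between these libraries.

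Most synthetases come from 1 gene for 1 amino acid, but EPRS1 joins glutamate and proline activities in 1 protein, and FARSA and FARSB encode the subunits of the phenylalanine enzyme. Several cytosolic enzymes assemble, with scaffold proteins, into the multisynthetase complex. Mitochondria use a separate nuclear-encoded set, except that GARS1 and KARS1 also supply the mitochondrial enzyme from the same gene. The enzymes fall into class I and class II by the fold of their catalytic domain. When uncharged transfer RNA accumulates, the kinase GCN2 raises translation of the transcription factor ATF4, which binds C/EBP-ATF composite elements and turns on amino acid transporters, biosynthetic enzymes and many of the cytosolic synthetase genes.

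Promoter sequence was examined for this element. The letters TGATGNAA were searched on both strands in RefSeq promoter windows of GRCh38.p14, which run from 250 bases before to 50 bases after each annotated start. Windows were matched for 30 of the 36 members. LARS1, TARS3, VARS1, YARS1, AARS2 and VARS2 were unmatched. The letters occurred in a window of 7 of 10 matched cytosolic genes usually listed as ATF4 targets, in 0 of 6 other cytosolic genes and in 1 of 14 mitochondrial genes, YARS2. Among all genes with a window they occurred in 1217 of 27305, or 4.5%, and among genes expressed here in 298 of 11167, or 2.7%. Of the other ATF4-programme genes described below, 18 had a window, and the letters occurred in 5 of them, or 27.8%. The list of ATF4 targets was drawn up with results of these data known. It and the motif also both derive from what is known of ATF4, so their overlap is a description and not independent evidence.

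The 7 cytosolic stretches are shown in the direction of transcription with the 8 matched bases in capitals and 20 bases on each side, since 6 of these genes were lower in the shSTBD1 libraries and NARS1 was not called. They lie at chr16:70289666-70289713 for AARS1 (minus strand), chr11:3057398-3057445 for CARS1 (minus), chr7:30594825-30594872 for GARS1 (plus), chr9:92293683-92293730 for IARS1 (minus), chr12:57488044-57488091 for MARS1 (plus), chr5:33440947-33440994 for TARS1 (plus) and chr18:57621795-57621842 for NARS1 (minus).
AARS1: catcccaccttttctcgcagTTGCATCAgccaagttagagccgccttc
CARS1: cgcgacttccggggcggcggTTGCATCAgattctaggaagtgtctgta
GARS1: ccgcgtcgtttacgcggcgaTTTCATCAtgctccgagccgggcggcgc
IARS1: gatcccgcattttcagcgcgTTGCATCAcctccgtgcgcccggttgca
MARS1: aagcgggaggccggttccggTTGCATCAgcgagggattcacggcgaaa
TARS1: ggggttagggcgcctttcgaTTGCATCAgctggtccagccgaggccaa
NARS1: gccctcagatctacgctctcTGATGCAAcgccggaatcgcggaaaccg
Positions were counted from the annotated start of each window as 0. The first matched base lay at -187 in AARS1, -2 in CARS1, -33 in GARS1 and -13 in IARS1. It lay at -4 in MARS1, 2 in TARS1 and 14 in NARS1. CARS1, GARS1 and TARS1 also have a window at another annotated start, in which the letters did not occur. Which start these cells use was not examined. AARS1, CARS1, IARS1, MARS1 and TARS1 carried the same 8 bases, which are the reverse complement of those in NARS1. GARS1 differed from them within the free position of the motif. A match in these letters is not a measured binding site.

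The libraries held between 17689097 and 21668274 expected counts. STBD1 was measured at 16.2, 15.7 and 14.4 CPM (counts scaled to library size) in shControl and at 11.6, 9.06 and 9.18 in shSTBD1, so every library labelled as a knockdown lay below every control (log2 fold change -0.64 ± 0.098 SE, adjusted p = 0.00029 by edgeR). Limma on log2 TPM did not call STBD1, at -0.54 with a pseudocount of 1 (adjusted p = 0.065) and -0.65 with 0.1 (adjusted p = 0.067). Of 6 epithelial markers, 5 were at 18.4 TPM (level scaled to transcript length and library) or more in every library, whereas VIL1 stayed at 0.21 or less. The 6 summed to between 2850 and 2890 TPM in shControl and between 3240 and 3370 in shSTBD1. PTPRC and CD3E were at 0, the 3 leukocyte markers summed to at most 0.18 TPM and the 2 endothelial markers to at most 0.34. Fibroblast markers summed to between 14.6 and 20.6 TPM, nearly all of it COL1A1. The part of these marker differences in the results was not tested.

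All 36 synthetases were expressed highly enough to be tested, and 11 of them were lower in shSTBD1 while 0 were higher at an adjusted p under 0.05 in edgeR's quasi-likelihood test. The lower genes were CARS1, YARS1, GARS1, MARS1, TARS1, WARS1, AARS1, IARS1 and VARS1 of the cytosolic set and HARS2 and VARS2 of the mitochondrial set. Of all 15566 genes tested, 7.54% were lower and 8.22% higher, 15.8% in either direction, against 30.6% of the synthetases. Log2 fold changes of the members ran from -0.31 to 0.10, with a median of -0.086 beside 0.0023 over all tested genes. The changes were therefore small, and the largest, that of CARS1, was a decrease of 19.6% in CPM. RNA from bulk cultures does not tell fewer cells from less RNA in each cell. Without the filter on low counts or with the replicate number as a block, LARS2 joined the lower genes and made 12.

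The compartments differed in their counts. In the cytosolic set 9 of 20 genes were lower (45%), with a median log2 fold change of -0.09. In the mitochondrial set 2 of 16 were lower (12.5%), with a median of -0.072. Of all 15566 tested genes, 7.54% were lower. The difference between compartments was not tested. The mitochondrial genes had lower levels and were measured less precisely, with a median SE of 0.059 against 0.035. The smallest change that passed was 0.11 on the log2 scale in the cytosolic set and 0.15 in the mitochondrial set. An unadjusted p under 1e-5, which 2.38% of all tested genes reached, was reached by 3 members, all cytosolic (CARS1, YARS1 and GARS1).

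**Figure D1:**
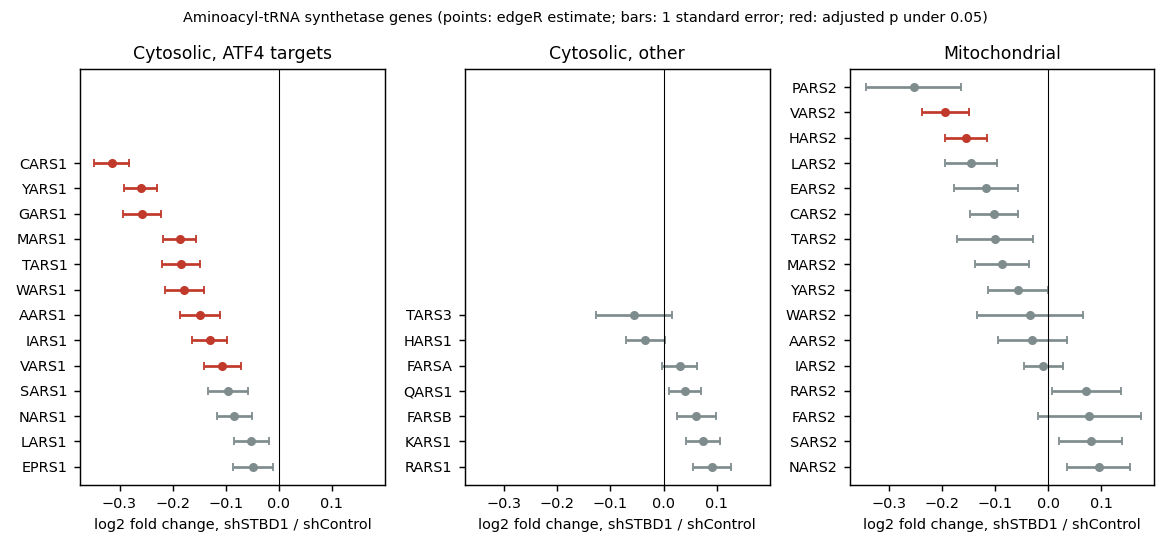
Log2 fold change of shSTBD1 over shControl for each of the 36 synthetases, in 3 panels for cytosolic genes usually listed as ATF4 targets, other cytosolic genes and mitochondrial genes. Points are edgeR estimates with bars of 1 SE, and red marks an adjusted p under 0.05. All 13 points of the first panel lie below 0, while 5 of the 7 in the second lie above it. The ATF4 list was drawn up with results of these data known.

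CARS1, which charges cysteine, had the largest change. It was at 119, 120 and 121 CPM in shControl and at 95.8, 97.5 and 95.9 in shSTBD1, so every knockdown library lay more than 20 CPM below every control library. The means were 120 ± 1.13 and 96.4 ± 0.962 (SD, n = 3 each), and the log2 fold change was -0.31 ± 0.033 SE with an adjusted p of 6.5e-06 by edgeR. CARS1 (ENSG00000110619) lies on the minus strand at chr11:3000922-3057613.

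YARS1, the tyrosine enzyme, also showed a clear gap, with 246, 240 and 236 CPM in shControl and 199, 201 and 203 in shSTBD1. Its log2 fold change was -0.26 ± 0.031 SE (adjusted p = 2.3e-05, edgeR). GARS1, which charges glycine for cytosol and mitochondria alike, was at 245, 230 and 229 CPM in shControl and at 201, 198 and 189 in shSTBD1. The lowest control library of GARS1 thus stood well above the highest knockdown library, and its log2 fold change was -0.26 ± 0.036 SE (adjusted p = 0.00012, edgeR). YARS1 (ENSG00000134684) is at chr1:32775237-32818031 and GARS1 (ENSG00000106105) at chr7:30580533-30634033. CARS1, YARS1 and GARS1 kept their call in each of the 17 alternative analyses.

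MARS1, TARS1 and WARS1 fell by similar amounts. MARS1, which charges both initiator and elongator methionine transfer RNA, was at 266, 270 and 261 CPM in shControl and at 237, 237 and 225 in shSTBD1 (log2 fold change -0.19 ± 0.032 SE, adjusted p = 0.00091, edgeR). TARS1, the threonine enzyme, was at 276, 263 and 269 CPM against 245, 241 and 226 (-0.18 ± 0.036 SE, adjusted p = 0.0022). In MARS1 and TARS1 the lowest control lay above the highest knockdown library. WARS1, the tryptophan enzyme, was at 131, 128 and 131 CPM against 117, 118 and 109 (-0.18 ± 0.037 SE, adjusted p = 0.0034). The groups of WARS1 did not overlap either. In each of the 3 genes shSTBD1 replicate 3 was the lowest library, and each was still called without it. They are at chr12:57475445-57517569 (MARS1, ENSG00000166986), chr5:33440696-33468091 (TARS1, ENSG00000113407) and chr14:100333790-100376805 (WARS1, ENSG00000140105). MARS1 shares 519 exon bases with ARHGAP9 and 355 with DDIT3, both on the opposite strand. DDIT3, a stress gene, was not called (log2 fold change 0.09, adjusted p = 0.67, edgeR).

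AARS1, IARS1 and VARS1 charge alanine, isoleucine and valine, and their differences were smaller beside a larger spread among the controls. AARS1 was at 337, 303 and 306 CPM in shControl and at 285, 289 and 281 in shSTBD1 (log2 fold change -0.15 ± 0.038 SE, adjusted p = 0.014, edgeR). IARS1 was at 433, 404 and 412 CPM against 384, 379 and 378 (-0.13 ± 0.033 SE, adjusted p = 0.012). VARS1 was at 402, 370 and 384 CPM against 362, 357 and 355 (-0.11 ± 0.034 SE, adjusted p = 0.042). In each, shControl replicate 1 was the highest library and the groups did not overlap. All 3 were still called without that control, AARS1 at -0.10, IARS1 at -0.10 and VARS1 at -0.08. Leaving out any single shSTBD1 library ended the call of AARS1 (adjusted p 0.052 to 0.074) and of VARS1 (0.086 to 0.15), and leaving out shSTBD1 replicate 2 or 3 ended that of IARS1 (0.066 and 0.064). VARS1 was also lost without shControl replicate 3 (adjusted p = 0.10, edgeR).

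**Figure D2:**
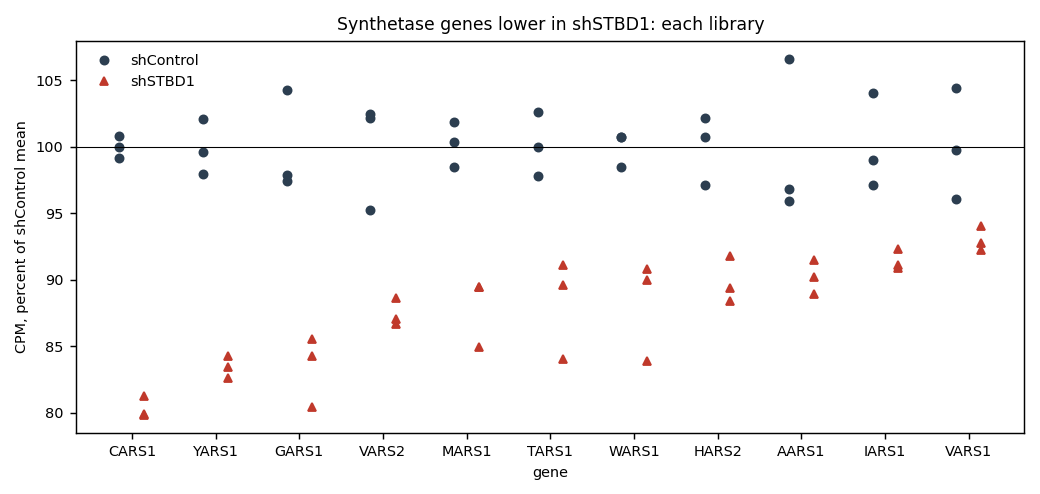
CPM of each library as a percent of the shControl mean for the 11 synthetases that were lower in shSTBD1 (circles, shControl; triangles, shSTBD1). In each gene the 3 triangles lie below the 3 circles, and the gap is widest in CARS1 and narrowest in VARS1.

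Of the mitochondrial genes, HARS2 and VARS2 passed the test. HARS2, the histidine enzyme, was at 76.9, 79.8 and 80.9 CPM in shControl and at 72.7, 70.8 and 70.0 in shSTBD1 (log2 fold change -0.15 ± 0.039 SE, adjusted p = 0.012, edgeR). VARS2, the valine enzyme, was at 62.1, 62.3 and 57.9 CPM against 53.9, 52.9 and 52.7 (-0.19 ± 0.044 SE, adjusted p = 0.0061). The groups did not overlap in either gene. HARS2 lost its call without shControl replicate 3, shSTBD1 replicate 2 or shSTBD1 replicate 3 (adjusted p 0.055, 0.059 and 0.064), and VARS2 was called in all 6 of these runs. HARS2 (ENSG00000112855, chr5:140691430-140699305) shares 152 exon bases with ZMAT2 on the same strand, and whether reads of ZMAT2 entered its count was not tested. HARS2 stands head to head with its cytosolic counterpart HARS1 (chr5:140673035-140691537), and the annotations of the 2 genes share 108 exon bases on opposite strands. HARS1 itself was at 137, 126 and 132 CPM against 131, 127 and 128 (log2 fold change -0.03 ± 0.037 SE). VARS2 (ENSG00000137411, chr6:30914205-30926459) shares 4073 of its 6467 annotated exon bases with an unnamed long noncoding RNA gene on the same strand, and whether reads of that RNA entered its count was not tested.

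PARS2 and LARS2 came next among the mitochondrial genes. PARS2, the proline enzyme, was at 14.8, 12.7 and 13.7 CPM in shControl and at 11.9, 12.2 and 10.4 in shSTBD1, which gave the largest decrease of any mitochondrial member without a call (log2 fold change -0.25 ± 0.089 SE, adjusted p = 0.064, edgeR). LARS2, the leucine enzyme, was at 70.4, 66.2 and 61.4 CPM against 59.6, 61.6 and 58.0 (-0.14 ± 0.049 SE, adjusted p = 0.057). In LARS2 the lowest control lay just below the highest knockdown library, so the groups overlapped, while in PARS2 they did not. CARS2 also had groups apart, with 58.1, 56.2 and 56.4 CPM against 52.1, 55.5 and 51.3 (-0.10 ± 0.045 SE, adjusted p = 0.14).

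The remaining 11 mitochondrial genes were not called and are given by their log2 fold changes. EARS2 was at -0.12, TARS2 at -0.10, MARS2 at -0.09, YARS2 at -0.06, AARS2 and WARS2 at -0.03 and IARS2 at -0.01. NARS2 was at 0.10, FARS2 and SARS2 at 0.08 and RARS2 at 0.07. NARS2 was the only mitochondrial gene with all shSTBD1 libraries above all shControl libraries (30.0, 29.8 and 29.9 CPM against 26.0, 28.8 and 29.2). Of these 11 genes FARS2 and WARS2 had the widest intervals, from -0.12 to 0.27 and from -0.24 to 0.17 (estimate ± 2 SE). A decrease of the size seen in CARS1 lies outside both intervals, while smaller changes lie within them. How small a change could be detected was not examined.

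Within the cytosol the lower genes were all among those usually listed as ATF4 targets. That list was drawn up with results of these data known. Of the 13 listed genes, 9 were lower (69.2%), beside 7.54% of all tested genes. All 13 had a negative log2 fold change, with a median of -0.15. The 4 without a call were SARS1 at -0.10 ± 0.038 SE, NARS1 at -0.08 ± 0.033, EPRS1 at -0.05 ± 0.038 and LARS1 at -0.05 ± 0.033. SARS1 and NARS1, which charge serine and asparagine, still had groups apart. NARS1 was at 222, 231 and 230 CPM in shControl and at 221, 214 and 209 in shSTBD1 (adjusted p = 0.093, edgeR).

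Of the 7 cytosolic genes outside that list, 0 were called, beside 15.8% of all tested genes. With so few genes a count of 0 says little. DESeq2 and limma also called 0, but they called only 5.18% and at most 1.88% of the genes each tested. An unadjusted p under 0.05 (edgeR) was reached by 2 of the 7, and the share of all genes at that level was not counted. Their median log2 fold change was 0.04, but 0.006 with effective-length offsets, 0.0036 with the gene-length trend removed and -0.0039 with limma on log2 TPM, where 4 of the 7 were below 0. RARS1, which charges arginine, was at 150, 145 and 144 CPM in shControl and at 163, 151 and 154 in shSTBD1 (log2 fold change 0.09 ± 0.036 SE, adjusted p = 0.096, edgeR). KARS1, which charges lysine in both compartments, was at 233, 221 and 229 CPM against 242, 238 and 240 (0.07 ± 0.032 SE, adjusted p = 0.12). In RARS1 and KARS1 the shSTBD1 libraries all lay above the controls, and without shControl replicate 1 both were called higher (adjusted p 0.035 and 0.021). With effective-length offsets RARS1 was at 0.006. FARSB, QARS1, FARSA, HARS1 and TARS3 were at 0.06, 0.04, 0.03, -0.03 and -0.06. Their intervals of 2 SE reached from -0.20 in TARS3, the least abundant, to 0.13 in FARSB. Whether the 13 and the 7 differ was not tested, since the list was drawn up with results of these data known.

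Libraries of the 2 groups did not overlap in 20 members, 15 lower and 5 higher in shSTBD1, against 33.6% of all tested genes in either direction. The 5 higher were RARS1, KARS1, QARS1, FARSB and NARS2, none of which was called. In the cytosol, class I genes included 6 lower of 9 with a median log2 fold change of -0.13, and class II genes 3 lower of 10 with a median of -0.07. Of the 7 cytosolic members that belong to the multisynthetase complex, 2 were lower (MARS1 and IARS1) and 3 had a positive change (RARS1, KARS1 and QARS1). Outside the complex 7 of 13 were lower. These counts stand beside 7.54% lower among all tested genes. Class, complex and ATF4 status overlap among so few genes, and their parts were not separated.

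Per library, the median of the 20 cytosolic log2 CPM values relative to the shControl mean was 0.035, -0.031 and -0.0066 in the control libraries and -0.064, -0.10 and -0.10 in the knockdown libraries. For the 16 mitochondrial genes it was 0.012, 0.023 and 0.0025 against -0.069, -0.035 and -0.12. In both compartments each knockdown library thus sat below each control. The summed level of the cytosolic genes was 2340, 2390 and 2350 TPM in shControl and 2220, 2210 and 2230 TPM in shSTBD1, and that of the mitochondrial genes was 390, 411 and 397 TPM against 381, 373 and 374.

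Levels between genes were compared in TPM, which accounts for transcript length. In shControl the cytosolic genes ran from 7.23 TPM in TARS3 to 230 in QARS1 with a median of 124, and the mitochondrial genes from 4.37 in WARS2 to 72.8 in IARS2 with a median of 20. After QARS1 came IARS1 at 173, MARS1 at 161, TARS1 at 155 and KARS1 at 151 TPM, then VARS1 and FARSA at 146. This order depends on RSEM's effective lengths, which averaged 897 bases in QARS1 and 2771 in IARS1. In shControl the mean CPM of QARS1 was 181 and that of IARS1 was 416. TARS3, a second threonine gene, was far below TARS1 and below its mitochondrial counterpart TARS2 at 13.7. CARS1, the gene that changed most, was low for a cytosolic member at 61.8 TPM. RSEM's posterior SD of a member's count, which reflects how its reads were shared out among genes, was at most 0.679% of the count.

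**Figure D3:**
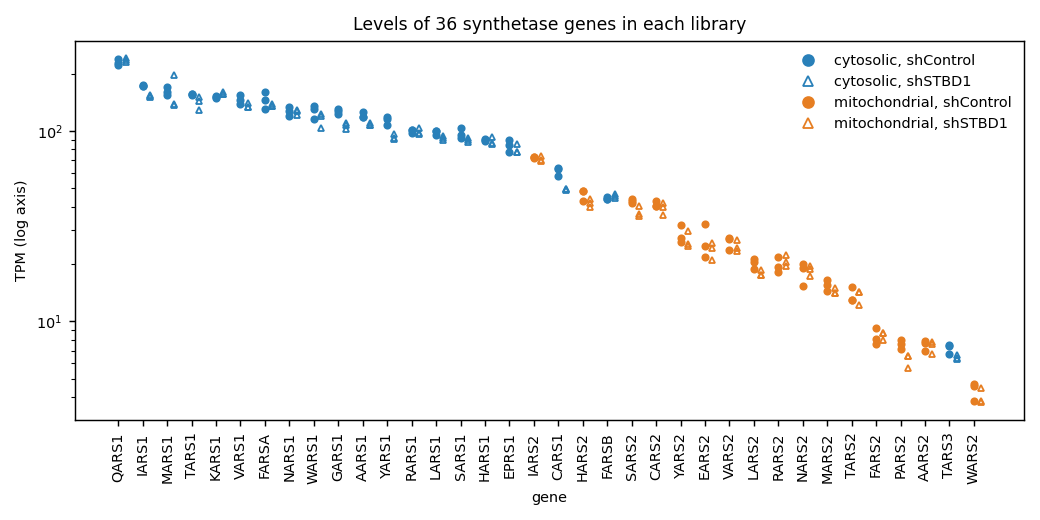
Level of each of the 36 synthetases in TPM on a log axis, ordered by the shControl mean (filled circles, shControl; open triangles, shSTBD1; blue, cytosolic; orange, mitochondrial). By their shControl means, the cytosolic genes apart from TARS3 lie at 44.3 TPM or more, and of the mitochondrial genes HARS2 and IARS2 exceed that level.

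Where an amino acid has a gene in each compartment, the cytosolic one was more abundant, from 1.5 times for cysteine to 29.1 times for tryptophan, with TARS3 as the exception at 0.528 times TARS2. The partners often differed in whether they were called. Valine was the only pair with both genes lower. For alanine, cysteine, isoleucine, methionine, threonine, tryptophan and tyrosine the cytosolic gene was lower and the mitochondrial one was not called. For histidine it was the reverse. In the cysteine pair CARS1 was at -0.31 and CARS2 at -0.10, and in the tyrosine pair YARS1 was at -0.26 and YARS2 at -0.06. Among all tested genes 7.54% were lower. A missing call is not in itself a smaller change. Intervals of 2 SE included the cytosolic partner's value in AARS2 (-0.16 to 0.10), MARS2 (-0.19 to 0.02), TARS2 (-0.25 to 0.04) and WARS2 (-0.24 to 0.17). Those of CARS2, IARS2 and YARS2 did not. The differences within pairs were not tested.

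The effective length that RSEM estimated for each gene, which reflects the transcripts it assigned reads to, bears on several calls. When it entered the model as an offset, 4 of the 11 lower members kept their call, CARS1, YARS1, GARS1 and IARS1, and limma on log2 TPM called the same 4. Calls over all genes dropped to 511 with these offsets (3.28%). IARS1 was slightly further from 0 with the offset, at -0.17. MARS1 moved from -0.19 to -0.02, and its effective length was 1922, 1858 and 1874 bases in shControl and 1971, 1906 and 1275 in shSTBD1, so shSTBD1 replicate 3 alone departed from the rest. VARS2 moved from -0.19 to -0.07, with effective lengths of 2538, 2695 and 2790 bases against 2299, 2522 and 2450. SARS2 moved from 0.08 to -0.18, with 944, 1072 and 1079 bases against 1273, 1157 and 1245. In SARS2 48.2% of the annotated exon bases are shared with a read-through gene on the same strand. AARS1, HARS2, TARS1, WARS1 and VARS1 kept values between -0.15 and -0.09 with the offset but lost the call (adjusted p 0.13 to 0.38, edgeR).

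**Figure D4:**
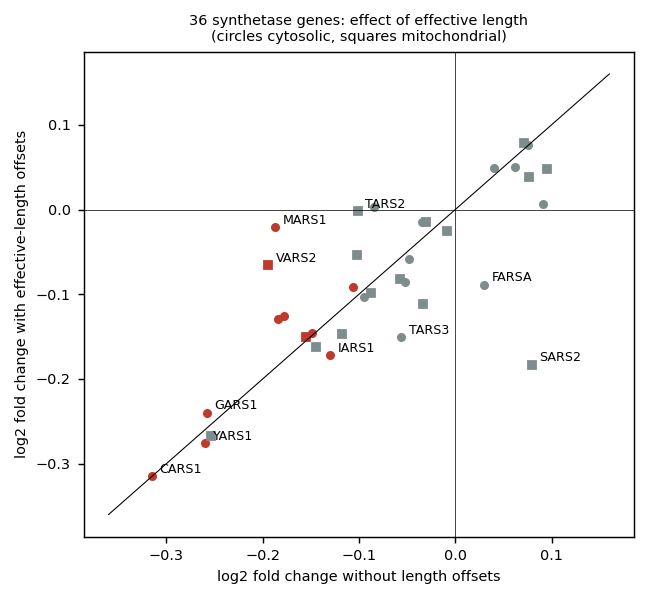
Log2 fold change of each synthetase without (horizontal axis) and with (vertical axis) effective-length offsets, with the line of equality (circles, cytosolic; squares, mitochondrial; red, lower in the analysis without offsets). CARS1, YARS1, GARS1 and IARS1 stay near the line, whereas MARS1 and VARS2 move towards 0 and SARS2 crosses it.

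Longer genes tended to lower fold changes in these libraries, from a median of 0.056 in the 3892 tested genes with the shortest effective length to -0.035 in the 3892 with the longest. The members had a median effective length of 2026 bases, and most lay between these sets, where the medians of the shorter and the longer genes were 0.013 and -0.012. With this trend removed, 11 members were lower, of which 10 were the same, VARS1 was lost (adjusted p = 0.058, edgeR) and SARS1 was gained (adjusted p = 0.035).

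Of 16 genes for partners of aminoacylation, 1 was higher and 3 were lower, 25% against the 15.8% of all genes. The partner list was chosen with earlier results of these data known. AIMP1, a scaffold of the multisynthetase complex, was at 52.3, 52.4 and 53.0 CPM in shControl and at 60.2, 60.3 and 58.4 in shSTBD1 (log2 fold change 0.18 ± 0.041 SE, adjusted p = 0.0060, edgeR). The other scaffolds, AIMP2 and EEF1E1, were at 0.16 and 0.11 and were not called (adjusted p 0.11 and 0.23). AIMP1 thus moved opposite to the complex members MARS1 and IARS1, while RARS1, KARS1 and QARS1 had positive changes without a call. EPRS1 and LARS1, also of the complex, were both at -0.05 and not called. TRNT1, which adds the CCA end that synthetases charge, was at 24.5, 24.1 and 23.1 CPM against 20.9, 20.2 and 18.8 (-0.26 ± 0.064 SE, adjusted p = 0.011), and was not called without shSTBD1 replicate 3 (adjusted p = 0.065, edgeR). EEF1A1, which carries charged transfer RNA to the ribosome, was at 11400, 10800 and 11000 CPM against 10100, 9960 and 9920 (-0.15 ± 0.029 SE, adjusted p = 0.0022). EEF1A1 has processed pseudogenes, and RSEM's posterior SD of its count was 0.00527% of the count. With effective-length offsets EEF1A1 kept its call, while AIMP1 was at 0.33 (adjusted p = 0.063, edgeR) and TRNT1 at -0.29 (adjusted p = 0.13). XPOT, the exporter of transfer RNA from the nucleus, was at -0.10 ± 0.030 SE (adjusted p = 0.027) and lost its call in 5 of the 6 runs that leave out a library, all but that without shControl replicate 1 (adjusted p 0.061 to 0.11). QRSL1, GATB and GATC, which form mitochondrial glutaminyl transfer RNA by amidation, and TUFM, the mitochondrial counterpart of EEF1A1, lay between -0.07 and 0.04. SEPSECS and PSTK, which act in the selenocysteine route, were at 0.18 and -0.17 and were not called (adjusted p 0.076 and 0.55).

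Of 25 other genes of the ATF4 programme, 23 were tested, 12 were lower and 3 higher, 65.2% beside the 15.8% of all genes. Their median log2 fold change was -0.14. The programme list was chosen with earlier results of these data known, so its share is a description and not a test. The 13 cytosolic synthetases listed as ATF4 targets had a similar median, -0.15. SLC7A11, the cystine transporter, was at 72.4, 75.1 and 77.7 CPM in shControl and at 48.4, 43.8 and 47.2 in shSTBD1 (-0.69 ± 0.047 SE, adjusted p = 6.7e-08, edgeR). ASNS, asparagine synthetase, was at 149, 149 and 155 CPM against 101, 101 and 98.2 (-0.59 ± 0.034 SE, adjusted p = 1.3e-08). STC2, a secreted glycoprotein, was at -0.23, but at -0.10 and not called with effective-length offsets (adjusted p = 0.31, edgeR). Limma did not call STC2 either. The fold changes of CHAC1, which degrades glutathione, and of PHGDH and PSAT1, which begin serine synthesis, were -0.64, -0.51 and -0.46. Beside these, NARS1 and SARS1, which load the asparagine and serine that ASNS and PHGDH help to make, were at -0.08 and -0.10, and CARS1, which loads the cysteine that SLC7A11 helps to supply, at -0.31.

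The programme did not move in 1 direction. ATF3, a stress-induced transcription factor, was at 17.8, 18.5 and 21.2 CPM in shControl and at 25.6, 24.9 and 24.9 in shSTBD1 (0.39 ± 0.070 SE, adjusted p = 0.0011, edgeR). DDIT4, an inhibitor of mTORC1 signalling, and MTHFD2, a mitochondrial folate enzyme, were also higher, at 0.29 and 0.10, and MTHFD2 lost its call in the same 5 runs as XPOT (adjusted p 0.055 to 0.16, edgeR). ATF4 RNA was at 308, 363 and 349 CPM against 323, 315 and 323, so the groups overlapped (-0.09 ± 0.046 SE, adjusted p = 0.22). Without shControl replicate 1, the lowest control, ATF4 was at -0.16 with an adjusted p of 1e-04 by edgeR, and with the gene-length trend removed it was at -0.12 (adjusted p = 0.046). ATF4 is controlled largely at translation, and its protein was not measured here.

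**Figure D5:**
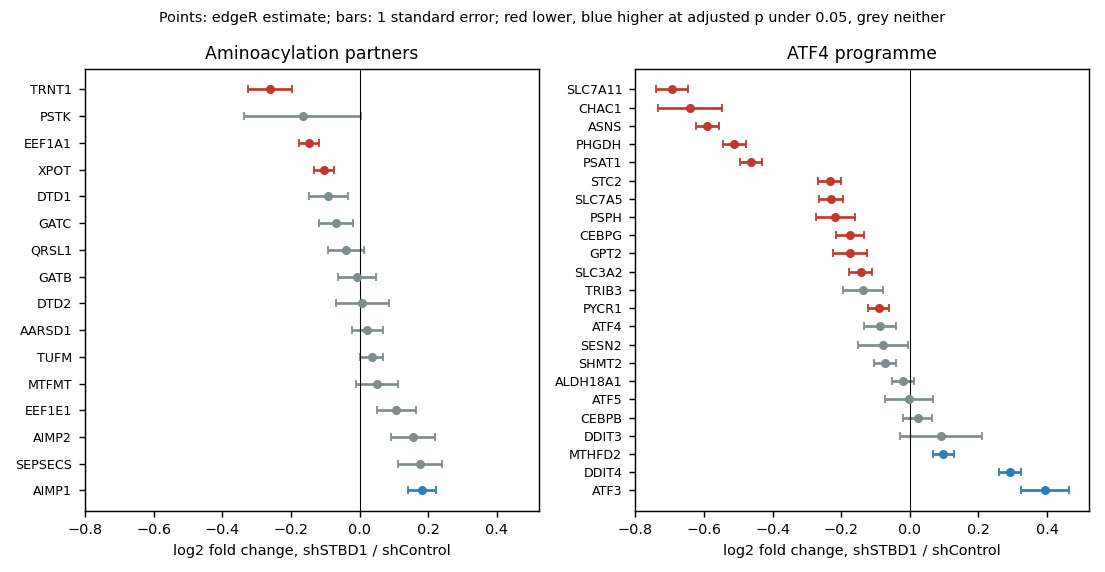
Log2 fold change of shSTBD1 over shControl for the 16 partners of aminoacylation (left) and the 23 tested genes of the ATF4 programme (right), as edgeR estimates with bars of 1 SE. Red is lower and blue higher at an adjusted p under 0.05, and grey is neither. The partners lie between -0.26 and 0.18, and the programme runs from -0.69 in SLC7A11 to 0.39 in ATF3.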

How the data were processed

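RNA-seq of HCT116 cells was compared between shSTBD1 and shControl. The authors aligned the reads to hg38 with STAR 2.7.1a and estimated gene levels with RSEM 1.3.1 on Ensembl release 93. Whether counting used strand is not given in the sources used here. They deposited, for each library, the expected count per gene, which is not normalized, and the TPM, which the authors derived from count and effective length and which sums to the same total in each library. For 6 libraries in 2 groups, expected counts were rounded, filtered by filterByExpr (15566 of 58395 genes kept) and scaled by TMM in edgeR 4.0.16 (R 4.3.3), and compared by its quasi-likelihood F-test with Benjamini-Hochberg adjustment over all tested genes. CPM values use the TMM-scaled library sizes. SEs were derived from the fold change and the F statistic. DESeq2 1.42.0, limma 3.58.1 (pseudocounts 1 and 0.1) and other settings made 17 alternatives. The steps were tested on simulated data in which the changes put in were larger than any change of a member. Recovery of changes as small as those of the members was not examined. Gene positions and overlaps are from GENCODE 44. The members, the ATF4, partner and marker lists and the alternatives were chosen with earlier results of these data known. Every member is named, and those called have their library values. Of the partner and ATF4 lists, the called genes with the largest changes, at most 6 in each direction, are named with ATF4 itself. AIMP2, EEF1E1, SEPSECS, PSTK, DDIT3, QRSL1, GATB, GATC, TUFM, LARS2, PARS2 and other members or partners without a call that have library values or a mention were added after their values were seen.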

Additional observations from a re-analysis of the deposited data

How the results depend on the processing

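All 11 lower members kept their direction in all 17 alternatives. Lower cytosolic genes numbered 9, lower mitochondrial genes 2, called partners 4 and called ATF4-programme genes 15. With effective-length offsets these became 4, 0, 1 and 8, and with limma on log2(TPM + 1) and on log2(TPM + 0.1) 4, 0, 0 and 8 in each, with the lower cytosolic ATF4 targets also at 4. Calls over all genes were 2453, against 511 with the offsets, 292 and 290 with limma and 1463 with DESeq2, which called 2 partners. Leaving out 1 library gave 6 to 10 lower cytosolic and ATF4-target genes, 0 to 2 higher cytosolic genes (2 without shControl replicate 1), 1 to 3 lower mitochondrial genes, 2 to 4 partners, 10 to 17 programme genes, 1409 to 2577 genes in all, and medians of -0.11 to -0.075 (cytosolic) and -0.10 to -0.057 (mitochondrial). Without shSTBD1 replicate 2, or without shSTBD1 replicate 3, 7 members were lower.

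Reversals were in genes without a call. With effective-length offsets FARSA became -0.089, SARS2 -0.183 and NARS1 0.003. With limma (TPM + 1, then + 0.1) FARSA became -0.093 and -0.093, SARS2 -0.189 and -0.194, and RARS1 -0.004 and -0.004. With the gene-length trend QARS1 became -0.010 and IARS2 0.009, and IARS2 was 0.002 with library size in place of TMM. Leaving out 1 library moved IARS2 between -0.037 and 0.016, WARS2 between -0.122 and 0.010 and AARS2 between -0.074 and 0.019. The causes were not tested.

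The replicate numbers served only as names. Deviations of same-numbered libraries correlated at 0.071, 0.068 and -0.0084, and 4 of 6 libraries correlated best with their own number. With a replicate block 12 members were lower and 2579 genes were called. The smallest member change that passed was 0.11 (log2), and PARS2, LARS2 and EARS2 exceeded it without a call.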
